A study of Mus musculus with 9 samples.

Results

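Glycolysis and the transcriptional response to low oxygen were followed through 44 named genes in 9 mouse RNA-seq libraries. The genes were chosen by name, with earlier results of these data known. They were 4 transporters of glucose or lactate, 17 names of glycolytic enzymes and 4 genes that set the flux through glycolysis or into the mitochondria. The others were 17 targets of hypoxia-inducible factor (HIF) outside glycolysis and both alpha subunits, Hif1a and Epas1. Aldoa was listed under a pair of IDs, so the 44 names covered 45 gene IDs, of 21820 IDs listed in both deposited tables. The second Aldoa ID (ENSMUSG00000114515, chr7:126800790-126809108) lies directly upstream of the main one (ENSMUSG00000030695, chr7:126795234-126800751) and carried between 1.3% and 2.1% of the aldolase signal in the tumour libraries.

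The study concerned how macrophages under endoplasmic reticulum (ER) stress act on tumour cells. Lewis lung carcinoma (LLC) cells, a tumour line of C57BL mice, were grown for 24 h in medium that bone marrow-derived macrophages (BMDM) had conditioned for 16 h. The macrophages came in 2 kinds, which the labels call GM-BMDM or M-BMDM without spelling the letters out. They had first been kept for 12 h with tunicamycin, which blocks N-linked glycosylation and so causes ER stress, and had then been washed ("stressed medium"), or had received none ("unstressed medium"). The 5 LLC libraries were stressed GM medium, stressed M medium, unstressed GM medium, unstressed M medium and untreated cells. The 4 macrophage libraries, also from C57BL mice, were GM-BMDM after 4 h of tunicamycin, M-BMDM after 4 h of tunicamycin, untreated GM-BMDM and untreated M-BMDM. Each group was 1 library, so no value has a replicate error. The labels give neither the number of animals behind a macrophage library nor the medium in which untreated LLC cells were kept, so conditioning by macrophages and any other difference of the culture medium cannot be told apart in the comparisons with untreated cells. Tunicamycin carried over with stressed medium and products of the stressed macrophages cannot be told apart either.

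Glycolysis splits glucose into pyruvate in a chain of steps, each run by 1 or several isoenzymes, and lactate dehydrogenase turns pyruvate into lactate, which leaves the cell by monocarboxylate transporters. HIF is a pair of an alpha subunit, which prolyl hydroxylases mark for destruction when oxygen is present, and a constant beta subunit. It binds a short DNA core and raises transcription of most glycolytic genes and of genes for vessel growth, mitophagy and pH control. HIF is also raised in macrophages by inflammatory signals, and tumour lines often keep glycolysis high in normal oxygen.

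Library totals ran from 15020068 to 17128471 counts for LLC and from 37695079 to 42751176 counts for macrophages. Macrophage markers fitted the labels: all 10 were detected in each macrophage library, with summed levels from 32795 to 52112 CPM (read counts scaled to a fixed library total), against 26.6 to 40.7 CPM in LLC libraries, where Ptprc, Adgre1, Itgam and Tyrobp had 0 counts throughout. The 6 epithelial markers summed to 363 CPM in untreated LLC cells, nearly all of it Krt8 and Krt18, with Krt19, Epcam and Cdh1 at 0, and the 6 mesenchymal markers summed to 4539 CPM, with Col1a1 at 0. Neutrophil markers summed to 1614 CPM in tunicamycin-treated and 1686 CPM in untreated GM-BMDM, against 41.3 CPM in tunicamycin-treated and 62.5 CPM in untreated M-BMDM. Most of the GM-BMDM sum was Mmp8, with 1485.5 CPM treated and 1458.8 CPM untreated. Mmp9 ran the other way, with 5.66 against 9.41 CPM treated and 5.64 against 12.0 CPM untreated. A level below is a CPM value scaled by the trimmed mean of M-values (TMM) within its own table. A difference is of log2(CPM + 1), which understates the change of low genes. Genes with a mean of at least 1 CPM in a table were compared: 43 of the 45 IDs in each table, without Aldoc and Epas1 in LLC and without the second Aldoa ID and Adm in macrophages.

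LLC cells in macrophage-conditioned medium held more mRNA of 9 of 17 glycolytic enzyme IDs, of the lactate exporter Slc16a3 and of 11 of 17 HIF targets than untreated LLC cells by the test given below, and less Hif1a mRNA. Tpi1, Pgk1, Pgam1, Eno1 and Ldha were 1.55-fold to 2.17-fold as high as in untreated cells over the 4 media. Pfkl was 1.66-fold to 1.97-fold as high, while Pfkp and the low isoforms Eno2 and Ldhb were lower in all 4 media. Hk1, Hk2, Gpi1 and Aldoa differed from untreated by at most 0.24 on the log2 scale in every medium. Summed over all 18 enzyme IDs, the level was 15854 CPM in stressed GM medium, 15664 CPM in stressed M medium, 13821 CPM in unstressed GM medium, 13743 CPM in unstressed M medium and 10060 CPM in untreated cells. RNA of bulk cultures was measured, so a change in the cells' number or composition and a change in RNA per cell cannot be told apart. The 4 comparisons with untreated cells share the 1 untreated library, and an error in that library would move all of them together.

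The median difference was larger over HIF targets outside glycolysis than over enzymes in all 4 media, with wide spread inside each group. Summed levels gave the opposite order. HIF targets summed to 2838 and 2649 CPM in stressed GM and M medium. They summed to 2605 and 2546.5 CPM in unstressed GM and M medium, against 2126.5 CPM in untreated cells. In proportion, this rise was smaller than that of the enzyme sums in each medium. In stressed GM medium the median log2 difference from untreated cells was 0.19 over 17 enzyme IDs and 0.46 over 17 HIF targets, against 0.02 over all 11190 genes. In stressed M medium these medians were 0.26, 0.32 and 0.02. In unstressed medium they were 0.08, 0.42 and 0.03 for GM and 0.16, 0.24 and 0.02 for M. Of the 17 enzyme IDs, 10 were above untreated in all 4 media and 4 below, and of the 17 HIF targets 12 were above and 1 below, where 36.4% of all genes were above in all 4 and 32.2% below. Both stressed media above both unstressed media, and these above untreated, was the order of 9 of the 17 enzyme IDs, 7 of the 17 HIF targets and 18 of all 43 members, where 13.1% of all genes had it.

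At 2-fold, 7 members were higher in stressed GM medium than in untreated cells, where 1.48% of all genes tested were, and 6 in stressed M medium, where 1.22% of genes were. In unstressed medium 1 member passed 2-fold with GM medium (1.04% of genes) and 0 with M medium (0.5% of genes). No member was 2-fold lower in any of the 4 media, where 2.4% of genes were with stressed GM, 2.14% with stressed M, 1.93% with unstressed GM and 1.4% with unstressed M medium. At 1.5-fold, 16 members were higher and 5 lower in stressed GM medium (7.36% and 8.44% of genes) and 15 and 4 in stressed M medium (6.87% and 8.26% of genes). In unstressed medium these were 13 higher and 3 lower with GM (6.68% and 7.22% of genes) and 12 and 3 with M (4.95% and 5.28% of genes).

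Among transporters, Slc16a3, the monocarboxylate transporter that exports lactate, showed the largest difference. It had 543 CPM in stressed GM medium, 529 CPM in stressed M medium, 363 CPM in unstressed GM medium and 323 CPM in unstressed M medium, against 198 CPM in untreated cells. The order was the same in both kinds of medium, with stressed medium highest and untreated lowest. The ratio of stressed GM medium to untreated was 2.75 (95% exact Clopper-Pearson interval 2.64 to 2.86; this and the intervals below cover counting error alone, and reads are not independent molecules). Slc2a1, the main glucose transporter of most cells, did not follow: it had 267 and 244 CPM in stressed GM and M medium and 176 and 183 CPM in unstressed GM and M medium, against 235 CPM in untreated cells. Stressed medium was thus above untreated and unstressed medium below it. The neuronal-type glucose transporter Slc2a3 stayed between 5.01 and 8.25 CPM in all 5 libraries, and Slc16a1, the other lactate transporter, had 404, 452, 406 and 416 CPM in stressed GM, stressed M, unstressed GM and unstressed M medium, against 343 CPM in untreated cells.

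Triosephosphate isomerase (Tpi1) and lactate dehydrogenase A (Ldha) were the enzymes past 2-fold. Tpi1 had 788 and 755 CPM in stressed GM and M medium and 633 and 653 CPM in unstressed GM and M medium, against 363 CPM in untreated cells. Ldha had 1575 and 1553 CPM in stressed GM and M medium and 1250.2 and 1248 CPM in unstressed GM and M medium, against 756 CPM in untreated cells. For each gene both stressed media were above both unstressed media, and all 4 above untreated. Stressed GM medium over untreated gave a ratio of 2.17 for Tpi1 (interval 2.104 to 2.243) and 2.08 for Ldha (interval 2.04 to 2.13). Pgk1, the kinase that makes the first ATP of the chain, had 2218 and 2186 CPM in stressed and 1854 and 1859 CPM in unstressed GM and M medium, against 1179 CPM in untreated cells. Pgam1, the mutase after it, had 723 and 706 CPM in stressed and 615 and 591 CPM in unstressed GM and M medium, against 379.8 CPM in untreated cells. Eno1, the main enolase, had 3566 and 3444 CPM in stressed and 2996 and 2845 CPM in unstressed GM and M medium, against 1839 CPM in untreated cells. These 3 genes kept the order of Tpi1 and Ldha, with both stressed media highest and untreated lowest. Pfkl, the liver-type phosphofructokinase, had 408 and 411 CPM in stressed and 346 and 352 CPM in unstressed GM and M medium, against 209 CPM in untreated cells, in the same order. Just under 2-fold in stressed GM medium stood Pfkl (log2 difference 0.96), Eno1 (0.95), Pgam1 (0.93) and Pgk1 (0.91), and Higd1a, a mitochondrial HIF target (0.99). Just above it stood the HIF target Hilpda (1.02).

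**Figure D1:**
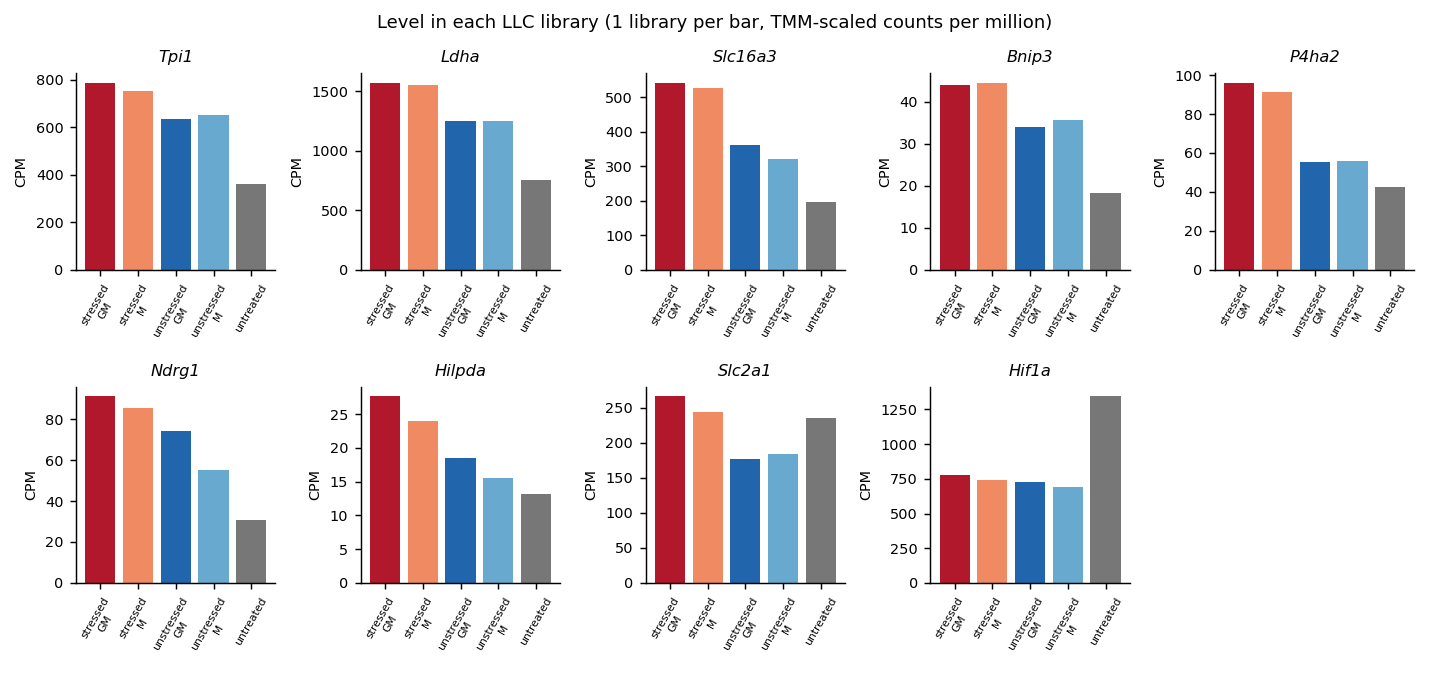
CPM in each of the 5 LLC libraries for the 7 members at least 2-fold higher in a stressed medium than in untreated cells, and for Slc2a1 and Hif1a. Each bar is 1 library, and the vertical axes differ between panels. In the first 7 panels every medium is above untreated and both stressed media are above both unstressed media; Slc2a1 has both unstressed media below untreated, and Hif1a has all 4 media below untreated.

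Hexokinase, the isomerase Gpi1 and Aldoa stayed closer to untreated than Pfkl, which acts between them. Hk2, the inducible hexokinase, had 344 and 351 CPM in stressed and 273 and 279 CPM in unstressed GM and M medium, against 305 CPM in untreated cells. Gpi1, the isomerase that follows, had 563 and 562 CPM in stressed and 557 and 587 CPM in unstressed GM and M medium, against 541 CPM in untreated cells. Aldoa, the main aldolase, had 761 and 769.8 CPM in stressed and 711 and 751 CPM in unstressed GM and M medium, against 671 CPM in untreated cells. Hk2 alone of these had both unstressed media below untreated. Pkm, pyruvate kinase, had 4000 and 4017 CPM in stressed and 3694 and 3689 CPM in unstressed GM and M medium, against 2809 CPM in untreated cells. It differed from untreated by 0.51 and 0.52 in stressed GM and M medium and by 0.39 in each unstressed medium. Gapdh, which oxidises glyceraldehyde phosphate between Tpi1 and Pgk1, had 233 and 234 CPM in stressed GM and M medium and 225 and 197 CPM in unstressed GM and M medium, against 195 CPM in untreated cells, a smaller difference than those of Tpi1 and Pgk1. The enzymes below untreated in all 4 media were Hk1, Pfkp, Eno2 and Ldhb. Eno2, the neuronal enolase, had 7.31 and 7.39 CPM in stressed and 7.47 and 8.19 CPM in unstressed GM and M medium, against 14.4 CPM in untreated cells. Ldhb, the lactate dehydrogenase of oxidative tissues, had 8.31 and 10.1 CPM in stressed and 12.2 and 12.1 CPM in unstressed GM and M medium, against 16.5 CPM in untreated cells. Pfkp, the platelet-type phosphofructokinase, had 425 and 423 CPM in stressed and 401 and 409 CPM in unstressed GM and M medium, against 508 CPM in untreated cells. Eno1, Gapdh, Aldoa and Ldha have close copies in the genome, and how reads that fit several copies were counted is not given in the sources used here. The one listed copy with many counts was Eno1b, with 832 to 1973 counts per LLC library.

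Of the HIF targets, Ndrg1, Bnip3, P4ha2 and Hilpda passed 2-fold in a stressed medium. Ndrg1, a cytoplasmic protein raised in hypoxia, had 91.3 and 85.3 CPM in stressed GM and M medium and 74.4 and 55.0 CPM in unstressed GM and M medium, against 30.7 CPM in untreated cells. This is a ratio of 2.98 for stressed GM medium over untreated (interval 2.68 to 3.31), the largest of all members. Bnip3, a mitophagy receptor, had 44.1 and 44.6 CPM in stressed and 34.05 and 35.74 CPM in unstressed GM and M medium, against 18.2 CPM in untreated cells. P4ha2, a subunit of collagen prolyl hydroxylase, had 96.2 and 91.5 CPM in stressed GM and M medium and 55.4 and 55.8 CPM in unstressed GM and M medium, against 42.6 CPM in untreated cells. Its pattern differed from that of Bnip3 in that unstressed medium lay close to untreated. Hilpda, an inhibitor of lipid breakdown on lipid droplets, had 27.7 and 24.0 CPM in stressed and 18.5 and 15.5 CPM in unstressed GM and M medium, against 13.2 CPM in untreated cells.

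Other HIF targets were spread from higher to lower. Bnip3l, a second mitophagy receptor, Egln1, a prolyl hydroxylase that acts on HIF alpha, and Higd1a, a protein of the inner mitochondrial membrane, were higher by 0.50 to 0.99 on the log2 scale in all 4 media. Vegfa, the angiogenic growth factor, had 348 and 264 CPM in stressed and 351 and 303 CPM in unstressed GM and M medium, against 238 CPM in untreated cells, so it was above untreated throughout and no higher with stress. Adm, a vasodilator peptide, had 129 and 128 CPM in stressed and 94.8 and 106 CPM in unstressed GM and M medium, against 127 CPM in untreated cells. Car9, the carbonic anhydrase often used as a hypoxia marker, stayed at 1.64 to 3.10 CPM in all 5 libraries, and Ankrd37 at 1.64 to 2.86 CPM, both near the limit of what was compared. Egln3, P4ha1, Ddit4, Mxi1, Kdm3a and Bhlhe40 differed from untreated by at most 0.51 in each medium.

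Flux control genes were split by function. Pdk1, which shuts pyruvate dehydrogenase and so keeps pyruvate out of the mitochondria, had 259 and 257 CPM in stressed and 240.1 and 242 CPM in unstressed GM and M medium, against 144 CPM in untreated cells. Pfkfb3, which makes the activator of phosphofructokinase, had 37.28 and 37.02 CPM in stressed and 36.9 and 31.2 CPM in unstressed GM and M medium, against 56.8 CPM in untreated cells. Pfkfb4, its relative, was lower by 0.22 to 0.54 and Pdk3 higher by 0.17 to 0.29. Hif1a itself (chr12:73901375-73947530, plus strand) had 781 and 745 CPM in stressed and 730.1 and 694 CPM in unstressed GM and M medium, against 1348 CPM in untreated cells, a log2 difference between -0.96 and -0.79. Epas1 had 0.39 CPM or less in all 5 LLC libraries. Only mRNA was measured, and HIF alpha is set largely at the protein level.

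**Figure D2:**
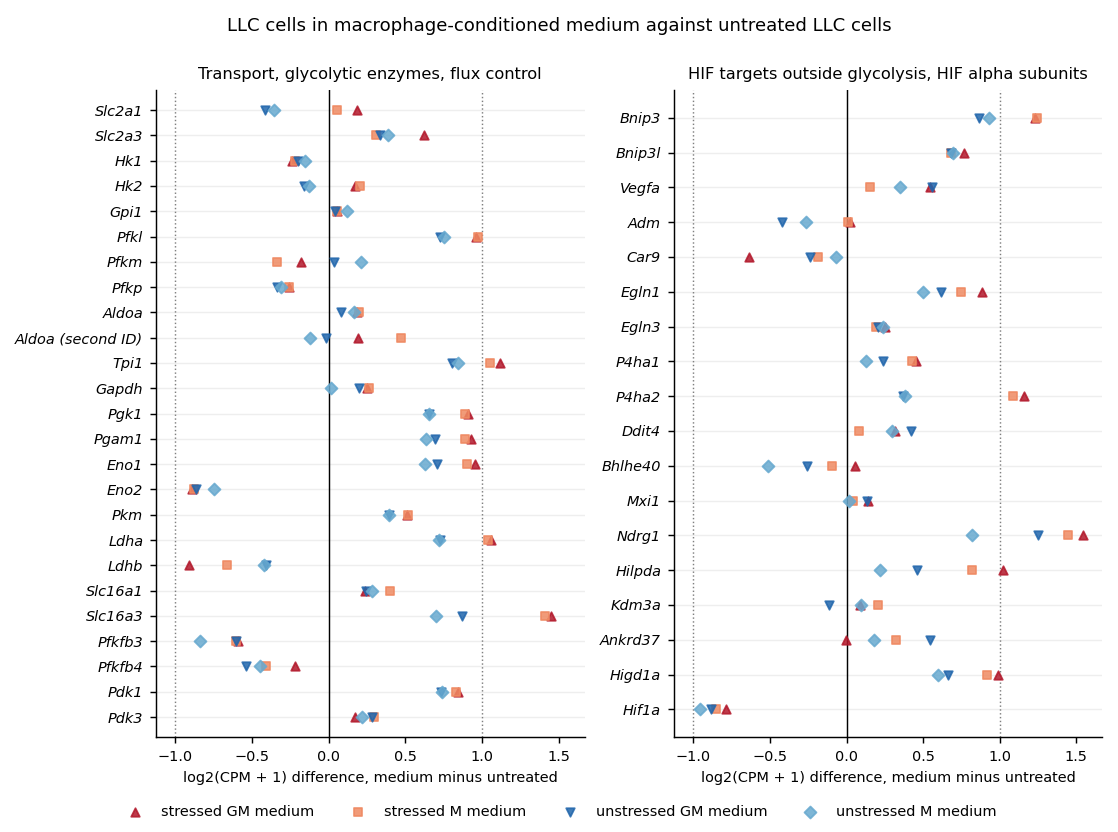
Log2(CPM + 1) difference from untreated LLC cells for each member with a mean of at least 1 CPM, 1 symbol per medium library; dotted lines mark 2-fold. Symbols of Pfkl, Tpi1, Pgk1, Pgam1, Eno1, Ldha, Slc16a3, Pdk1, Bnip3 and Ndrg1 lie to the right in all 4 media, those of Eno2, Pfkfb3 and Hif1a to the left, and Hk1, Hk2, Gpi1 and Aldoa lie near 0.

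A fit over all 5 LLC libraries, with terms for medium, for macrophage kind and for prior tunicamycin, tested these differences on counts. It has 1 residual degree of freedom, which comes from the media libraries alone, and borrows its spread across genes. A gene's own residual had no weight in that spread, so the SE and p values of this fit hold no variation particular to the gene. The untreated library has no partner and is assumed to vary like the others. The SE and p of the medium term therefore hold no measured variation of untreated cells. Against untreated cells, 24 of 43 members rose with medium and 9 fell (edgeR quasi-likelihood test, Benjamini-Hochberg adjusted p under 0.05 over all genes), where 22.8% of all genes rose and 23.9% fell. Enzymes gave 9 rises and 4 falls of 17 IDs, and HIF targets 11 rises and 1 fall of 17. The largest rises were those of Ndrg1 (log2 fold change 1.27 ± 0.09, SE, edgeR adjusted p = 1.45e-41), Slc16a3 (1.09 ± 0.06, edgeR adjusted p = 1.03e-60) and Bnip3 (1.08 ± 0.12, edgeR adjusted p = 9.76e-18). Hif1a fell by 0.90 ± 0.05 (edgeR adjusted p = 7.66e-64). DESeq2 called 20 members higher and 3 lower, where it called 9.02% and 8.8% of all genes. It left out Aldoa, Gapdh, Pdk3 and Hilpda among the rises, and called Pfkp, Pfkfb3 and Hif1a alone among the falls. Of 20 ATF4 targets 17 rose and 1 fell with medium in the edgeR fit, with a median log2 fold change of 0.60; of 12 ER chaperones 12 rose, with a median of 0.42, and of 20 mitosis genes 12 rose and 2 fell, with a median of 0.24; the part of these in the members' values was not tested.

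The promoters of 4 members that passed 2-fold in stressed medium are shown because they hold the core letters of the hypoxia response element. The core was searched as ACGTG or GCGTG on both strands in the 250 bases before each transcript start listed by RefSeq (build GRCm38.p6), with overlapping matches counted separately; for a gene with several listed starts the one nearest to the deposited gene start is shown. Each stretch is printed 5′ to 3′ on the gene's strand, up to the first base of any annotated exon, and capitals mark the core. Ldha is chr7:46845554-46845803 on the plus strand, Slc16a3 chr11:120948817-120949052 on the plus strand, Bnip3 chr7:138909520-138909756 on the minus strand and P4ha2 chr11:54100674-54100923 on the plus strand. The start used minus the deposited gene start was 4329 bases for Ldha, 829 for P4ha2, 587 for Slc16a3 and -13 for Bnip3. All 4 starts thus lie inside the deposited gene. The first bases after the Ldha start were not found in a GENCODE transcript of Ldha, while for 30 of 39 members such bases were found.
Ldha: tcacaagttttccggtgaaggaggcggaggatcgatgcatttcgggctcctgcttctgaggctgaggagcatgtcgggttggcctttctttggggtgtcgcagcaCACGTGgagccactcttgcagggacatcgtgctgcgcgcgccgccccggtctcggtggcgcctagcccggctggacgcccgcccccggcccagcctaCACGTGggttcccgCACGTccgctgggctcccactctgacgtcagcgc
Slc16a3: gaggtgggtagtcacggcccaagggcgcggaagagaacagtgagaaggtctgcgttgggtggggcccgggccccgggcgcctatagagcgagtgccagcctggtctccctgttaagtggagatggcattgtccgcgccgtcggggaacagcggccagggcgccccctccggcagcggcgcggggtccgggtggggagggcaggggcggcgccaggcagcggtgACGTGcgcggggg
Bnip3: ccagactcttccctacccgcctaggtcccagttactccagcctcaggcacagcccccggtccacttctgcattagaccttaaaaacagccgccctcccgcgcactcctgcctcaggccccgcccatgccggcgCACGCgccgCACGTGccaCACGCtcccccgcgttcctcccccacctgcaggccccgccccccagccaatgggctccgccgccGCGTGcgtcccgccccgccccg
P4ha2: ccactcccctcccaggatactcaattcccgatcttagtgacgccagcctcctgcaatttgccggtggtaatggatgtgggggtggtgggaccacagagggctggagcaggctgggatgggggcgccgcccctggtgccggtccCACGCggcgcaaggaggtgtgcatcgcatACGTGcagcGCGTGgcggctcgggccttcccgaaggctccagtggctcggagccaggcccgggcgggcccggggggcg
Ldha and Bnip3 each held 5 matches in 250 bases, the most of any member when overlapping matches count separately. A CACGTG gives a match on each strand, so both genes hold fewer separate sites than matches. Pdk3 held 4 matches, none of them overlapping, so Ldha does not lead by separate sites. P4ha2 held 3 and Slc16a3 held 2, one of them in the stretch printed. The other two genes past 2-fold, Tpi1 and Hilpda, held 0 in this window, and Ndrg1 was not among the 39 of 44 member names matched to the RefSeq list. Over all members 77.6% of 58 listed starts held the core, against 38.6% of all 32851 starts. The share was 75% for 28 starts of enzymes and 75% for 20 starts of HIF targets. Members' windows also had a higher content of G and C, at a median of 58.8% for enzymes and 61.8% for HIF targets against 52.4% for all starts, and more CG pairs, at a median of 13.5 and 19.5 against 6 per window. A match of letters is not a binding site. The letters TGATGNAA of the composite site for C/EBP and ATF factors, searched on both strands without regard to the core, were in 0 of the members' windows and in 3.45% of all windows.

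Stressed medium was also compared with unstressed medium of the same kind. Tunicamycin carried over and products of the stressed macrophages cannot be told apart in this comparison. Here Slc16a3, P4ha2 and Hilpda were higher by 0.56 to 0.79 on the log2 scale with both kinds of medium, and Ndrg1 by 0.29 with GM and 0.62 with M. Of all members, 2 with GM medium and 5 with M medium passed 1.5-fold upwards, where 1.49% and 1.94% of all genes did, and 0 passed 2-fold in either direction. With GM medium these were P4ha2 and Slc2a1, and with M medium Slc16a3, P4ha2, Ndrg1, Hilpda and the second Aldoa ID, which had 76 counts in stressed against 41 counts in unstressed M medium. Past 2-fold upwards lay 0.393% of genes with GM and 0.411% with M medium, and downwards 0.125% and 0.143%. Downwards 0 members passed 1.5-fold, where 2.16% of genes did with GM and 2.79% with M medium. P4ha2 had the largest difference with GM medium, with a ratio of 1.74 for stressed over unstressed (interval 1.60 to 1.89), and Slc16a3 with M medium, with a ratio of 1.64 (interval 1.58 to 1.70). Slc2a1 was higher by 0.59 with GM and 0.41 with M medium, from values given above. Among enzymes the differences were small and mostly of 1 sign: 12 of 17 were higher with stress in both kinds and 4 lower in both, where 35% of all genes were higher in both and 36.1% lower in both. Hk2 was higher by 0.34 and 0.33 with GM and M, Ldha by 0.33 and 0.32, and Tpi1 by 0.32 and 0.21, while Pfkm, the muscle-type phosphofructokinase, was lower by 0.21 and 0.55 and Ldhb by 0.50 and 0.24. Of 17 HIF targets, 11 were higher in both kinds and 3, Vegfa, Car9 and Ddit4, lower in both.

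In the fit, 21 of 43 members rose with prior tunicamycin and 3 fell (edgeR, adjusted over all genes), where 12.9% of all genes rose and 10.9% fell. Enzymes gave 9 rises, namely Hk2, Pfkl, Tpi1, Gapdh, Pgk1, Pgam1, Eno1, Pkm and Ldha, by 0.12 to 0.34, and 2 falls, Pfkm and Ldhb. HIF targets gave 10 rises, by 0.16 to 0.76, with P4ha2 the largest (0.76 ± 0.07, edgeR adjusted p = 2.67e-25), and 1 fall, Ddit4, an inhibitor of growth signalling. Slc16a3 rose by 0.65 ± 0.05 (edgeR adjusted p = 2.55e-32) and Slc2a1 by 0.51 ± 0.06 (edgeR adjusted p = 2.15e-17). DESeq2 called 12 members higher and 0 lower, where 2.8% of all genes were higher and 1.51% lower; 7 were enzymes, 3 were the HIF targets P4ha2, Ndrg1 and Adm, and the others were Slc2a1 and Slc16a3. Beside these, 12 of 12 ER chaperones rose in the edgeR fit, with a median log2 fold change of 0.58, and 0 of 20 mitosis genes rose while 8 fell. Their part in the members' values was not tested.

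Between the 2 kinds of medium the members differed by less than 1.5-fold, as nearly all genes did, and the fit called some HIF targets. With stressed medium the log2 difference of GM minus M ran from -0.45 to 0.39 over the 43 IDs, and with unstressed medium from -0.21 to 0.43. With stressed medium 0 members passed 1.5-fold in either direction, where 0.903% of all genes were higher and 0.572% lower, and with unstressed medium 0, where 0.903% were higher and 1.01% lower. The background past 2-fold was 0.206% higher and 0.0536% lower with stressed medium, and 0.125% higher and 0.0626% lower with unstressed medium. In the fit 3 HIF targets were called higher with GM medium and 1 lower, where 2.23% and 2.58% of all genes were. These were Vegfa (0.30 ± 0.05, edgeR adjusted p = 3.69e-06), Ndrg1 (0.25 ± 0.07), Ddit4 (0.18 ± 0.05) and, lower, the histone demethylase Kdm3a (-0.17 ± 0.05). DESeq2 called Vegfa alone. It gave no adjusted p to the HIF targets Ndrg1, Bnip3, Car9, Bhlhe40, Mxi1, Hilpda, Ankrd37 and Higd1a. The same held for the enzymes Pfkm, Eno2, Ldhb and the second Aldoa ID, and for Slc2a3, Pfkfb3 and Pfkfb4. Of the enzymes 0 were called by either tool. The stress response itself, GM minus M, differed by at most 0.69 in size for the 43 IDs, so 0 members were past 1, where 0.313% of genes were at 1 or more and 0.125% at -1 or less.

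Isoform use within a step was compared by length-scaled levels (FPKM, fragments scaled by gene length and library total). Phosphofructokinase differed in make-up between LLC libraries: Pfkl gave 55.9% and 57.1% of the step in stressed GM and M medium and 51.4% and 50.3% in unstressed GM and M medium, against 35.6% in untreated cells. Pfkp gave 29.03% to 29.7% in the 4 media, against 43.2% in untreated cells. By read counts without gene length, Pfkl gave 46.0% and 46.6% in stressed and 42.7% and 42.3% in unstressed GM and M medium, against 26.8% in untreated cells, and Pfkp gave 47.9% in each stressed medium, 49.5% and 49.1% in unstressed GM and M medium and 65.2% in untreated cells. The Pfkl share was thus higher in all 4 media than in untreated cells by either measure, but Pfkl exceeded Pfkp in the media only per length. That order rests on the deposited gene lengths, which were 6675 bases for Pfkl, 13401 for Pfkp and 3340 for Pfkm. Whether these lengths match the transcripts in the cells was not tested, so which of Pfkl and Pfkp was more abundant in the media is not settled. The sum of the 3 isoforms was 107 to 108 FPKM in stressed medium and 101 to 106 FPKM in unstressed medium, against 88.7 FPKM in untreated cells. Of Hk1 and Hk2 together, Hk2 gave 73.6% and 73.7% in stressed GM and M medium. It gave 68.3% and 68.0% in unstressed GM and M medium, and 67.7% in untreated cells. Hk3 was not a member and is left out of this share. In aldolase, enolase and lactate dehydrogenase, Aldoa, Eno1 and Ldha gave at least 95.6% of their step in every LLC library. In macrophages Aldoc, the brain-type aldolase, gave 10.4% and 10.1% of aldolase in tunicamycin-treated and untreated GM-BMDM, against 2.5% and 3.3% in tunicamycin-treated and untreated M-BMDM. Pfkm gave 4.7% and 4.5% of phosphofructokinase in tunicamycin-treated and untreated GM-BMDM, against 14.98% and 20.76% in the same states of M-BMDM.

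**Figure D3:**
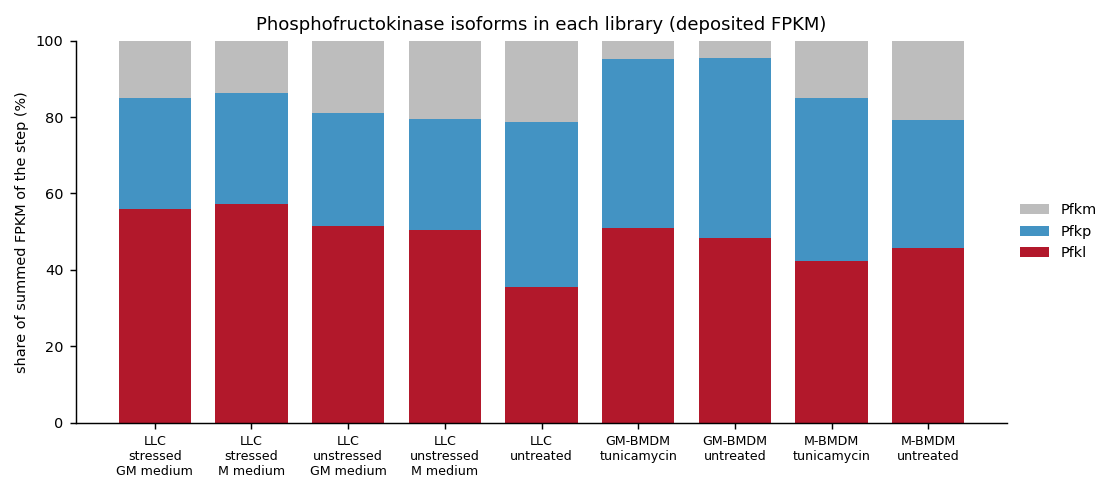
Share of each phosphofructokinase isoform in the summed FPKM of the step, in percent, for the 5 LLC and 4 macrophage libraries; each bar is 1 library. Per deposited gene length, Pfkl is below Pfkp in untreated LLC cells and above it in all 4 media (by read counts it stays below in all 5). The Pfkm share is smallest in GM-BMDM.

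GM-BMDM held more mRNA of most glycolytic enzymes than M-BMDM, while HIF targets outside glycolysis went both ways. Summed over the enzyme IDs the level was 9869 CPM in tunicamycin-treated GM-BMDM against 4628 CPM in tunicamycin-treated M-BMDM, and 10825 CPM in untreated GM-BMDM against 5821 CPM in untreated M-BMDM. The median log2 difference of GM minus M was 0.88 with tunicamycin and 1.08 without over 17 enzyme IDs, and 0.27 and 0.34 over 16 HIF targets, against -0.04 and -0.03 over all 11049 genes. With tunicamycin 16 members were at least 2-fold higher and 4 lower, where 12.6% and 7.82% of all genes were. Without it 11 were higher and 4 lower, where 12.4% and 7.02% were. At 1.5-fold, 23 members were higher and 7 lower with tunicamycin (19.9% and 17.5% of genes), and 20 and 5 without (18.9% and 15.5% of genes).

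Both GM-BMDM libraries were above both M-BMDM libraries for 15 of 17 enzyme IDs, 10 of 16 HIF targets and 32 of all 43 members, where 36.3% of all genes were; both were below for 2, 4 and 7, where 40% of all genes were. Aldoc had the largest enzyme difference, followed per fit by Ldhb, Gapdh and Eno1. Gapdh had 2208 CPM in tunicamycin-treated GM-BMDM against 653 CPM in treated M-BMDM, and 2552 CPM in untreated GM-BMDM against 806 CPM in untreated M-BMDM. Eno1 had 651 against 182 CPM with tunicamycin and 784 against 260.3 CPM without. Ldha had 679 against 194 CPM with tunicamycin and 765 against 319 CPM without. All 3 are among the 15 enzymes without overlap. Pgk1 had 548 CPM in treated GM-BMDM against 204 CPM in treated M-BMDM, and 616 CPM in untreated GM-BMDM against 273 CPM in untreated M-BMDM. Pgam1 had 714 CPM in treated GM-BMDM against 227 CPM in treated M-BMDM, and 802 CPM in untreated GM-BMDM against 301 CPM in untreated M-BMDM. Pfkl had 165 CPM in treated GM-BMDM against 76.7 CPM in treated M-BMDM, and 155 CPM in untreated GM-BMDM against 73.1 CPM in untreated M-BMDM. These, too, are among the 15. Pfkp, the second phosphofructokinase, had 287 CPM in treated GM-BMDM against 155 CPM in treated M-BMDM, and 306 CPM in untreated GM-BMDM against 107 CPM in untreated M-BMDM. Aldoc had 174 CPM in treated GM-BMDM against 26.3 CPM in treated M-BMDM, and 187 CPM in untreated GM-BMDM against 41.3 CPM in untreated M-BMDM. Ldhb had 15 CPM in treated GM-BMDM against 3.06 CPM in treated M-BMDM, and 16.2 CPM in untreated GM-BMDM against 5.1 CPM in untreated M-BMDM. Pgam1, Pgk1, Pfkl and Ldhb were at least 2-fold higher in both states, by 1.08 to 1.98 on the log2 scale, and Aldoc by 2.68 with tunicamycin and 2.15 without. Smaller differences were those of the other main isoforms among the members. Tpi1 had 268 CPM in treated GM-BMDM against 170.4 CPM in treated M-BMDM, and 302 CPM in untreated GM-BMDM against 230.1 CPM in untreated M-BMDM. Aldoa had 1340 CPM in treated GM-BMDM against 907 CPM in treated M-BMDM, and 1488 CPM in untreated GM-BMDM against 1074 CPM in untreated M-BMDM. Pkm had 2037 CPM in treated GM-BMDM against 1297 CPM in treated M-BMDM, and 2030 CPM in untreated GM-BMDM against 1727 CPM in untreated M-BMDM. Each was higher in GM-BMDM within a state, by less than 2-fold. Gpi1 had 517 CPM in treated GM-BMDM against 332 CPM in treated M-BMDM, and 575 CPM in untreated GM-BMDM against 407 CPM in untreated M-BMDM. Hk2 had 149.9 CPM in treated GM-BMDM against 102 CPM in treated M-BMDM, and 134 CPM in untreated GM-BMDM against 87.8 CPM in untreated M-BMDM. Hk3, a hexokinase that was not a member, was above Hk2 in CPM in each macrophage library. Hk3 had 197 CPM in treated GM-BMDM against 171 CPM in treated M-BMDM, and 206 against 189 CPM untreated. Pkm differed by 0.65 with tunicamycin and 0.23 without. Pfkm ran the other way, with 7.56 CPM in treated GM-BMDM against 13.6 CPM in treated M-BMDM and 7.20 CPM in untreated GM-BMDM against 16.6 CPM in untreated M-BMDM. The mRNA of the lactate exporter Slc16a3 was also higher in GM-BMDM, by 1.31 with tunicamycin and 0.85 without. Slc16a3 had 72.9 CPM in treated GM-BMDM against 28.8 CPM in treated M-BMDM, and 78.3 CPM in untreated GM-BMDM against 43 CPM in untreated M-BMDM. Slc16a1 had 36.8 CPM in treated GM-BMDM against 16.2 CPM in treated M-BMDM, and 38.1 CPM in untreated GM-BMDM against 21.9 CPM in untreated M-BMDM. Pdk3, a kinase of the same family as Pdk1, had 23.5 CPM in treated GM-BMDM against 9.03 CPM in treated M-BMDM, and 26.1 CPM in untreated GM-BMDM against 13.9 CPM in untreated M-BMDM. All 3 were past 2-fold with tunicamycin and not without.

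HIF targets separated widely. Bhlhe40, a transcriptional repressor of the clock and immune systems, had 347 CPM in treated GM-BMDM against 16.6 CPM in treated M-BMDM, and 349.8 CPM in untreated GM-BMDM against 5.21 CPM in untreated M-BMDM. The ratio was 20.9 with tunicamycin (interval 19.4 to 22.6) and 67.2 without (interval 58.3 to 77.8), the largest of all members. Vegfa was lower in GM-BMDM, with 95.0 against 294 CPM with tunicamycin and 65.4 against 132 CPM without. P4ha2 had 2.80 against 12.7 CPM with tunicamycin and 2.63 against 10.9 CPM without, and Ndrg1 21.7 against 47.0 CPM and 21.7 against 51.1 CPM. Vegfa, P4ha2 and Ndrg1 were thus below M-BMDM in both states, beside Bhlhe40 and Bnip3l above it. Bnip3l had 274 CPM in treated GM-BMDM against 126 CPM in treated M-BMDM, and 287 CPM in untreated GM-BMDM against 144 CPM in untreated M-BMDM. Mxi1, a repressor that competes with Myc, had 50.7 CPM in treated GM-BMDM against 23.2 CPM in treated M-BMDM, and 47.9 CPM in untreated GM-BMDM against 26.5 CPM in untreated M-BMDM. Epas1, the alpha subunit of a HIF found in fewer cell types, had 24.7 CPM in treated GM-BMDM against 3.72 CPM in treated M-BMDM, and 37.5 CPM in untreated GM-BMDM against 4.37 CPM in untreated M-BMDM. Hif1a had 434 against 449 CPM with tunicamycin and 452 against 314 CPM without.

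**Figure D4:**
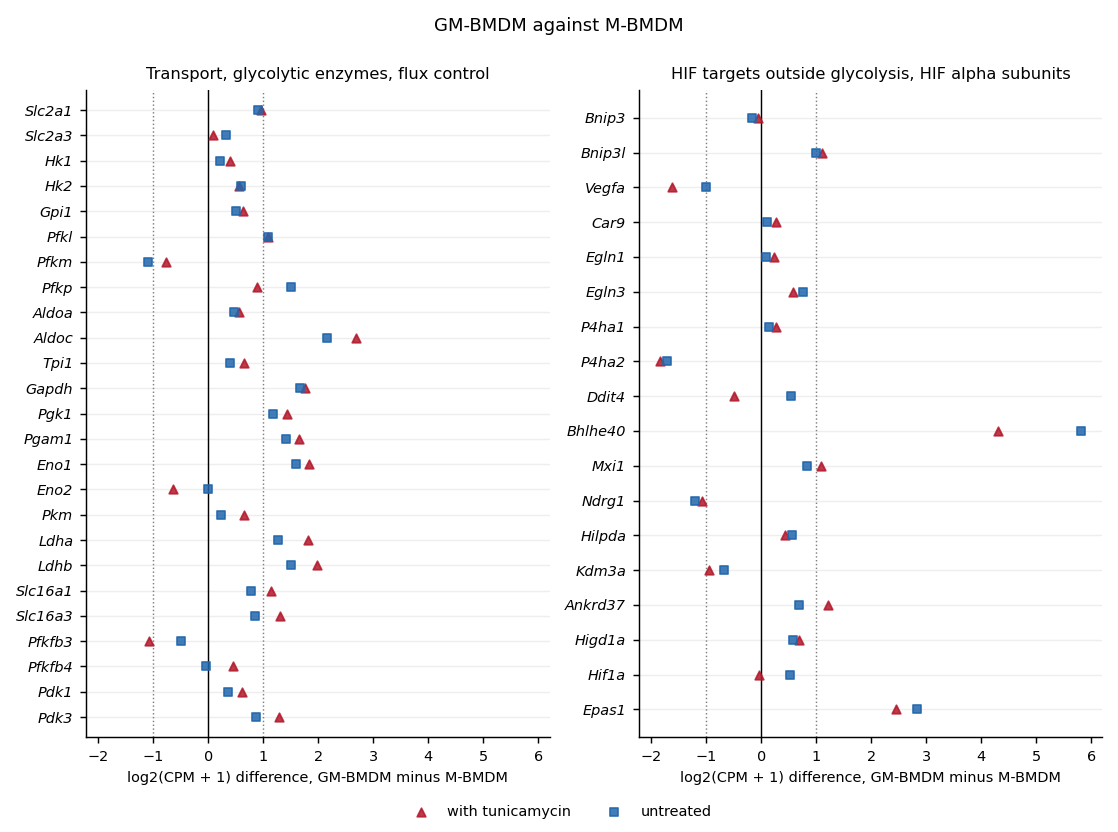
Log2(CPM + 1) difference of GM-BMDM minus M-BMDM for each member with a mean of at least 1 CPM, with tunicamycin (triangles) and untreated (squares); dotted lines mark 2-fold. In the left panel most enzymes lie to the right of 0 and Pfkm to the left; in the right panel Bhlhe40 and Epas1 lie far right and P4ha2, Ndrg1 and Vegfa left.

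A fit over the 4 macrophage libraries, with terms for kind and for tunicamycin and 1 residual degree of freedom, called 28 of 43 members higher in GM-BMDM and 6 lower (edgeR, adjusted over all genes), where 26.3% and 24.4% of all genes were. Enzymes gave 15 rises and 1 fall of 17, the fall being Pfkm, and HIF targets 7 rises and 4 falls of 16. The largest rises were Bhlhe40 (5.19 ± 0.39, edgeR adjusted p = 3.58e-05), Epas1 (2.93 ± 0.16, edgeR adjusted p = 8.09e-06) and Aldoc (2.47 ± 0.16, edgeR adjusted p = 1.63e-05), and P4ha2 fell by 2.1 ± 0.18 (edgeR adjusted p = 6.33e-05). DESeq2 called 25 higher and 6 lower, where 23% and 18.7% of all genes were. Other cell contents moved with the kind: 20 of 20 mitosis genes and 5 of 6 compared neutrophil markers were called higher in GM-BMDM, as were 5 of 5 compared mitochondrial mRNAs; the median log2 fold change was 3.348, 4.999 and 1.263 over these 3 lists. Their part in the members' values was not tested.

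After 4 h of tunicamycin most enzyme mRNAs stood slightly below untreated macrophages of the same kind, and 3 HIF targets stood above 2-fold in M-BMDM. None of this passed the edgeR test given further on, which called no gene at all. The median log2 difference of treated minus untreated was -0.15 in GM-BMDM and -0.30 in M-BMDM over the enzymes, 0.01 and -0.02 over HIF targets, and 0.00 over all genes in each. In M-BMDM, Ldha was lower by 0.72, Slc16a3 by 0.56 and Eno1 by 0.51, and Pfkp was higher by 0.53. In GM-BMDM the largest enzyme differences were those of Eno2, lower by 0.33, and Eno1, lower by 0.27. Of all members 3 were at least 2-fold higher in treated M-BMDM, where 1.18% of genes were, and 0 in treated GM-BMDM, where 0.0634% of genes were. At least 2-fold lower were 0 members in either kind, where 0.29% of genes were in M-BMDM and 0.443% in GM-BMDM. At 1.5-fold, M-BMDM had 4 members higher (3.9% of genes) and 4 lower (3.02% of genes), the lower ones being Ldha, Ldhb, Aldoc and Ankrd37, and GM-BMDM had 0 in either direction (0.326% and 1.63% of genes).

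Those 3 were Vegfa, Ddit4 and Bhlhe40. Vegfa had 294 CPM in treated against 132 CPM in untreated M-BMDM, a ratio of 2.22 (interval 2.15 to 2.30), and 95.0 CPM in treated against 65.4 CPM in untreated GM-BMDM. Ddit4 had 3.08 CPM in treated against 0.83 CPM in untreated M-BMDM, and 1.91 against 1.66 CPM in GM-BMDM. Bhlhe40 had 16.6 CPM in treated against 5.21 CPM in untreated M-BMDM, and 347 against 349.8 CPM in GM-BMDM, where its level was already far higher. Pfkfb3 had 61.4 CPM in treated against 36.3 CPM in untreated M-BMDM, and 28.5 against 25.3 CPM in GM-BMDM. Hif1a was higher by 0.52 in treated M-BMDM and lower by 0.06 in treated GM-BMDM. The difference of the 2 responses, GM minus M, was -1.52 for Bhlhe40 and -1.03 for Ddit4, the 2 members past 1 in either direction, where 0.208% of genes were at 1 or more and 1.38% at -1 or less; with 1 library per group it was not tested.

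Over both kinds, the edgeR fit called 0 members and 0.0% of genes for tunicamycin, while 1137 genes had an unadjusted p under 0.05. The spread in this fit rests on the difference between the responses of the macrophage kinds. An absent call therefore does not show an absent response. By DESeq2 19 genes (0.172%) were called higher and 33 (0.299%) lower, among them Vegfa alone of the members (log2 fold change 0.83, DESeq2 adjusted p = 0.00486). In the same comparison ATF4 targets had a median log2 difference of 0.47 in GM-BMDM and 1.78 in M-BMDM, and ER chaperones 0.23 and 0.67.

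**Figure D5:**
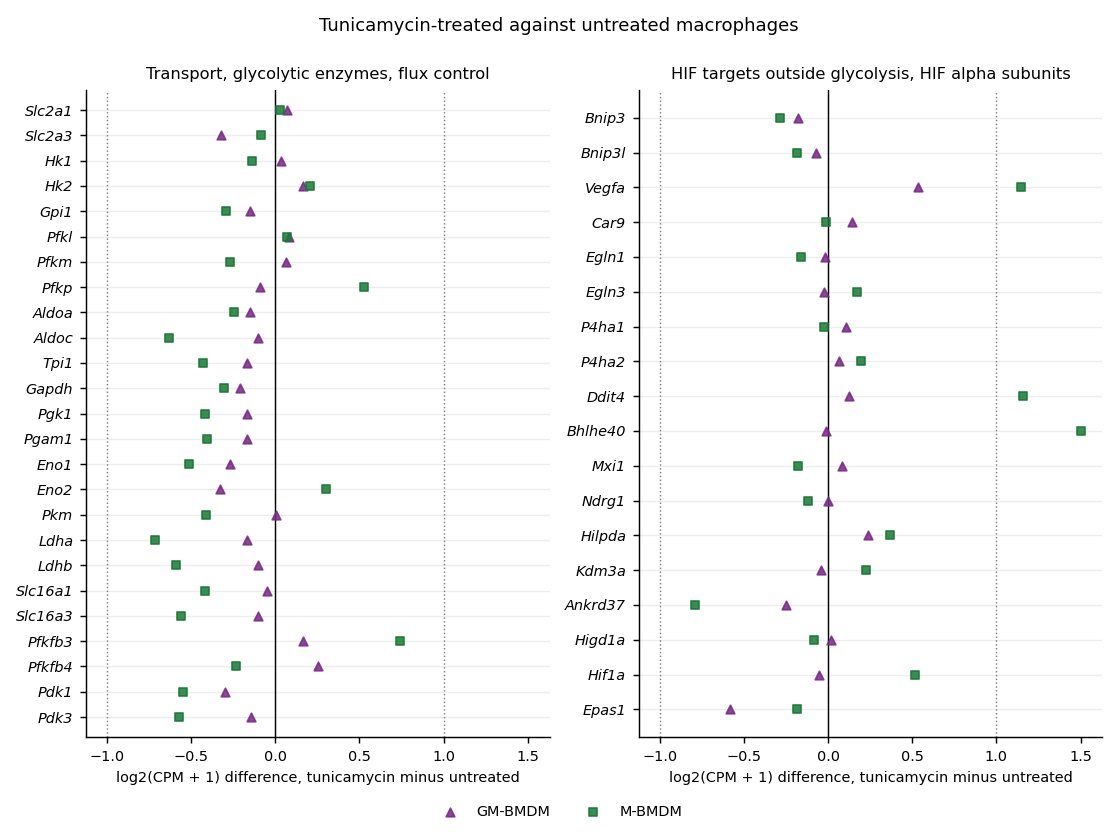
Log2(CPM + 1) difference of tunicamycin-treated minus untreated macrophages for each member with a mean of at least 1 CPM, in GM-BMDM (triangles) and M-BMDM (squares); dotted lines mark 2-fold. Most enzymes lie left of 0 in M-BMDM, and Vegfa, Ddit4 and Bhlhe40 pass 2-fold to the right in M-BMDM.

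Genes around the members were read from lists of 33 pathway neighbours, 13 genes of the HIF machinery and 30 further HIF targets. In the LLC fit, 14 of 23 further HIF targets compared rose with prior tunicamycin and 2 fell (edgeR; 12.9% and 10.9% of all genes), with 5 and 0 called by DESeq2 (2.8% and 1.51% of all genes). With medium 9 of the 23 rose and 5 fell (edgeR; 22.8% and 23.9% of all genes), with a median log2 fold change of 0.06, and 7 and 1 were called by DESeq2. Among them Car12, a carbonic anhydrase, had 14.8 CPM in stressed against 7.86 CPM in unstressed GM medium and 13.1 against 5.61 CPM in M medium, and Angptl4, a secreted inhibitor of lipoprotein lipase, had 11.5 and 7.63 CPM in stressed and 7.472 and 5.9996 CPM in unstressed GM and M medium, against 1.84 CPM in untreated cells. Ero1l, an ER oxidase that is also a target of the ER stress response, had 495 and 412 CPM in stressed GM and M medium and 348 and 318 CPM in unstressed GM and M medium, against 184 CPM in untreated cells. Of 26 pathway neighbours compared, which include the pentose phosphate branch, pyruvate carriers and pyruvate dehydrogenase, 7 rose and 2 fell with prior tunicamycin in LLC cells (edgeR; 12.9% and 10.9% of all genes), and 9 rose and 4 fell with medium (22.8% and 23.9% of all genes). Of 11 genes of the HIF machinery none was past 2-fold in any LLC comparison; Cited2, which competes with HIF for a coactivator, had 282 and 267 CPM in stressed and 299 and 287 CPM in unstressed GM and M medium, against 448 CPM in untreated cells. In macrophages Arnt2, a partner of HIF alpha subunits, had 10.04 CPM in treated GM-BMDM against 0.02 CPM in treated M-BMDM, and 11.6 CPM in untreated GM-BMDM against 0.05 CPM in untreated M-BMDM.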

How the data were processed

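RNA-seq of 9 mouse libraries, 1 per group, was analysed from 2 tables of read counts and FPKM per gene, 1 for the 5 LLC and 1 for the 4 macrophage libraries. Per the labels' protocols, total RNA was taken with Trizol. Per the submitters' processing notes, cutadapt 1.15, HISAT2 and TopHat2 2.1.0 were used; the counter, its handling of reads that fit several genes, its use of strand and the annotation release are not given in the sources used here. The deposited counts are whole numbers per gene, per the file headers. The deposited FPKM equal the count scaled by the deposited gene length and the library total, which was checked on the files. No replicate error can be had, and the intervals cover counting error alone.

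Members and lists were chosen with earlier results of these data known. Counts were scaled by TMM within each table (edgeR 4.0.16 in R 4.3.3), so a level is comparable within its table only. Differences are of log2(CPM + 1) among genes with a mean of at least 1 CPM, 11190 in LLC and 11049 in macrophages, and a call is 2-fold on that scale. Ratios of 2 libraries have 95% exact Clopper-Pearson intervals. edgeR's quasi-likelihood test was run on an additive model per table, with Benjamini-Hochberg adjustment over all genes tested. It has 1 residual degree of freedom per gene, so the spread comes mainly from other genes in macrophages and wholly from the pooled genes in LLC. The prior degrees of freedom, the weight of other genes, were 6.16 in macrophages and infinite in LLC. The biological coefficient of variation was 4.23% in LLC and 11.5% in macrophages. Such a spread cannot stand in for replicates. DESeq2 1.42.0 was the alternative tool; an adjusted p it did not give was left missing. Values in every library of a table are given for members with a 2-fold difference there and at least 5 CPM in either library and for the main isoform of each step, while other members and lists are given by counts, ranges and medians; Cited2, Arnt2, Car12, Angptl4 and Ero1l are among the largest differences of their lists. The fits were first run on simulated counts, with the same set spread for both tables and for every library. That spread was not taken from these data, so the simulation does not check the p-values given here. Promoter sequences are RefSeq's for GRCm38.p6. Alternatives covered scaling, pseudocount, filter, fold and tool.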

Additional observations from a re-analysis of the deposited data

How the results depend on the processing

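No called value changed sign under an alternative. Among uncalled values 31 did, 27 of single members and 4 group medians, and the largest of them was 0.09 in size as reported; the HIF-target median for tunicamycin in M-BMDM was 0.07 with the plain total count, against -0.02. The median of all genes, given as 0.02 for stressed medium against untreated, was -0.01 with GM and -0.02 with M medium under that scaling. With a 1.5-fold call, members higher than untreated numbered 16 in stressed GM, 15 in stressed M, 13 in unstressed GM and 12 in unstressed M medium, and members lower numbered 5, 4, 3 and 3; stressed over unstressed medium gave 2 higher with GM and 5 with M, tunicamycin in M-BMDM 4 lower, and GM-BMDM against M-BMDM 7 lower with tunicamycin and 20 higher without. Scaling by the plain total count gave an enzyme median of 0.17 for stressed against unstressed M medium, -0.20 for tunicamycin in M-BMDM and 0.78 for GM-BMDM against M-BMDM with tunicamycin, where it moved the median of all genes to -0.134. A pseudocount of 0.25 gave 1 member lower with tunicamycin in M-BMDM. A pseudocount of 5 gave 2 members lower in GM-BMDM against M-BMDM with tunicamycin and 2 without, a HIF-target median of 0.16 without tunicamycin, and 1 member whose tunicamycin response differed between kinds by 1 or more. A mean of at least 10 CPM gave 0.11 for that median and 1 for that count. Without a filter the enzyme medians were 0.17 for stressed against unstressed M medium, 0.77 for GM-BMDM against M-BMDM with tunicamycin and 0.84 without, the HIF-target median without tunicamycin was 0.14, and 1 member's stressed-medium response differed between GM and M by 1 or more. The edgeR fit without a filter called 1 member, a HIF target, higher with tunicamycin in macrophages, 0 HIF targets lower with LLC medium, and 0 members and 0 HIF targets lower with GM against M medium.

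DESeq2 called 1 member, a HIF target, higher with tunicamycin in macrophages. For LLC medium it called 1 enzyme, 0 HIF targets and 3 members lower; for GM against M medium 1 member, a HIF target, higher and 0 members and 0 HIF targets lower; and for prior tunicamycin 12 members and 3 HIF targets higher, with 0 enzymes, 0 HIF targets and 0 members lower. For GM against M medium DESeq2 gave no adjusted p to the members named above as lacking it, so they could not be called. Leaving out the untreated LLC library gave 1 enzyme lower with prior tunicamycin. Shares by read counts without length were 60.1% in LLC and 56.5% in macrophages for Hk2, of Hk1 and Hk2 alone. They were 34.5% in macrophages for Pfkl, 99.5% in LLC for Aldoa, and 99.04% in LLC and 98.2% in macrophages for Ldha. The cause of these shifts was not tested, apart from the different gene length, filter or fold that defines an alternative. No paired analysis was possible because each group has 1 library and no replicate numbers are shared; the additive fits hold macrophage kind as a term, which sets libraries of the same kind against each other. The chief limits are the absence of replicates, the single untreated LLC library behind 4 comparisons, and members near 1 CPM such as Car9 and Ankrd37, whose ratios rest on few counts.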

Other observations

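The GAPDH step stood apart when the steps of glycolysis were set side by side by length-scaled level (FPKM summed over isoforms). In LLC cells it was the lowest of the 11 steps in each library, at 55.7 and 56.0 FPKM in stressed GM and M medium and 54.2 and 48.4 FPKM in unstressed GM and M medium, against 47.8 FPKM in untreated cells. The next step, phosphoglycerate kinase, had 979 and 962 FPKM in stressed and 825 and 840 FPKM in unstressed GM and M medium, against 531 FPKM in untreated cells. In GM-BMDM the GAPDH step was instead the highest of the 11, at 530 FPKM with tunicamycin and 590.3 FPKM without. In M-BMDM it had 168 FPKM with tunicamycin and 193 FPKM without, below aldolase, at 341 and 378 FPKM, and pyruvate kinase, at 276 and 341 FPKM. The 2 tables were normalised separately, so the order of steps within a library is what can be compared. Gapdh has many near-identical copies in the mouse genome, and how reads shared with them were counted is not given in the sources used here; the part of this in the low LLC value was not tested.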
